A study of Gallus gallus with 2 samples.

Results

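The long non-coding RNAs (lncRNAs) described here are the 928 transcripts that the deposited table places on the sex chromosomes, of 21993 transcripts in all. They were taken by the chromosome name alone: 848 lie on Z, none on a scaffold assigned to Z, 18 on the assembled W and 62 on scaffolds assigned to W. RNA came from breast muscle of hens at 7 weeks of age, in 1 pool of 4 White Recessive Rock birds (WRR, a strain labelled fast-growing, 625.3 ± 12.0 g) and 1 pool of 4 Xing Hua birds (XH, labelled slow-growing, 328.5 ± 10.6 g). Per the labels, the birds were chosen for an average body weight within their strain and were kept on the same diet in different cages. The kind of error on the weights is not named. With 1 library per strain there is no replicate and no test, and intervals given below cover counting error only. Levels are in RPKM, the reads of a transcript divided by its length in kilobases and by the library's total in M reads.

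Hens are the heterogametic sex of birds and carry 1 Z and 1 W, while cocks carry a pair of Z. Birds have no chromosome-wide silencing like that of the mammalian X, and the missing Z copy of hens is made up for only in part and gene by gene. LncRNAs are known on chicken Z, where the male hypermethylated (MHM) region gives long non-coding transcripts in female cells. The W is small in genes and rich in repeats, and most of its genes have a related copy on Z. The table pairs no transcript with a gene name, so none could be matched to MHM or to a gene, and transcripts are named here by galGal4 position. For the same reason markers of muscle or of other cell types could not be checked. As both pools were hens, no level with a second copy of Z was measured.

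The Z carried few listed lncRNAs for its size. Over its 82.4 Mb there were 10.3 transcripts per Mb, the lowest density among the 30 chromosomes with at least 20 listed transcripts, which are 28 autosomes, Z and W. The assembled W, 1.25 Mb long, came next with 14.4 per Mb. The 14 listed scaffolds assigned to W, 687 kb in sum, held 90.2 per Mb. Scaffolds without a listed transcript are not in that sum. The density of the scaffolds is thus raised by construction and cannot be set against the other densities. Z transcripts were 201 to 12225 bases long with a median of 854, against 851 on the autosomes. The median on W was 1011 bases. The genomic interval was longer than the transcript for 41 Z transcripts (4.83%) and 1 W transcript, against 4.13% of autosomal ones.

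Z lncRNAs stood higher among the chromosomes in XH than in WRR. In XH the median Z transcript had 5.70 RPKM (quartiles 3.64 and 9.82), 1.31 times the autosomal median of 4.37 RPKM. Only chromosome 16 had a higher median in XH, 6.29 RPKM. In WRR the Z median was 2.75 RPKM (1.35 and 5.12), 1.07 times the autosomal 2.56 RPKM, and Z ranked 18 of 30 from the top. Coverage, the percent of a transcript's length under reads, had a median of 92.5% on Z in XH, the highest of the 30 chromosomes, and of 79.7% in WRR, against 89.4% and 79.4% on autosomes. Against chromosomes 3, 4 and 5, the autosomes nearest to Z in size, the ratio of medians was 1.27 in XH and 1.12 in WRR. A transcript had to be found to be listed, so these levels describe listed transcripts and not all of Z. Fewer cells of a type and less RNA per cell cannot be told apart in such bulk samples.

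The ratio of the strains on Z was the lowest of the 30 chromosomes. It is given as log2 of WRR over XH after 0.1 RPKM was added to each, for transcripts that reached 0.5 RPKM in either library. Of 845 such Z transcripts, 478 (56.6%) were at least 2-fold higher in XH, where 46.9% of all transcripts were. In the other direction 29 (3.43%) were that much higher in WRR, against 9.45% of all. The median was -1.15, against -0.93 on autosomes, and chromosome 2 came next with -1.10. Summed over Z, 5478 of each M reads fell on listed transcripts in WRR and 10319 in XH. The ratio was 0.531, with an exact 95% interval of 0.525 to 0.537. The same ratio was 0.799 on autosomes (0.797 to 0.801). There the 10 most read transcripts held 32.3% of the reads in WRR and 12.5% in XH, so a few transcripts weigh much in this ratio. On chromosomes 3, 4 and 5 it was 0.584 (0.581 to 0.586), nearer to that of Z. Since the median of all transcripts was itself -0.92, Z lay -0.24 from it. With that median subtracted, 103 Z transcripts lay 2-fold or more towards WRR and 201 towards XH. The Z median stayed below 0 under each scaling tried.

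The serial numbers of the transcripts fall into 3 runs, told apart by the order of chromosomes alone. Numbers to 3658 (series A) follow no order, those from 3659 to 11941 (series B) pass through the chromosomes once, and those from 11942 (series C) pass through them again. The series differ in which library holds the reads. On Z, at least 10 reads were counted in WRR for 241 of 244 series B transcripts but 246 of 446 in series C. In XH the numbers were 210 of 244 and 443 of 446. Series B made up 28.8% of Z transcripts and 36.0% of autosomal ones, and series C 52.6% and 49.0%. Values over all series, on Z and on autosomes, thus mix the series in unlike shares. What made the series is not stated in the sources used here, so each ratio is also given within them.

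Z and autosomes differed most in series B. There the median Z transcript had 5.02 RPKM in the WRR pool and 7.26 RPKM in the XH pool, while the autosomal one had 4.03 and 3.82 RPKM. Both Z values were high among the chromosomes, the XH one first and the WRR one placed 3 from the top. The median log2 ratio of series B was -0.52 on Z and 0.04 on autosomes, and the chromosome nearest to Z was chromosome 4 with -0.20. Of 242 Z transcripts in this series past the filter, 65 (26.9%) were at least 2-fold higher in XH, where 15.9% of all series B transcripts were. In the other direction 28 (11.6%) were at least 2-fold higher in WRR, against 23.6% of the series. In series A the Z median was -0.76 against -0.59 on autosomes, again the lowest of the chromosomes. Chromosome 4 came next with -0.70. Of the 158 on Z, 56 (35.4%) were at least 2-fold higher in XH, against 26.6% of the series, and 0 in WRR, against 5.15%. In series C the medians were -1.65 and -1.65, and Z ranked 9 of 30 from the bottom. Here 357 of 445 (80.2%) were at least 2-fold higher in XH and 1 in WRR, against 76.1% and 0.764%. The lower median ratio of Z thus appeared in series A and B and not in series C. By summed reads in series C, Z was lower than all autosomes together but not lower than chromosomes 3, 4 and 5. That ratio was 0.420 on Z (0.410 to 0.429) and 0.464 on autosomes (0.462 to 0.466). On chromosomes 3, 4 and 5 it was 0.410 (0.407 to 0.414). No test of these differences can be made without replicates.

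**Figure D1:**
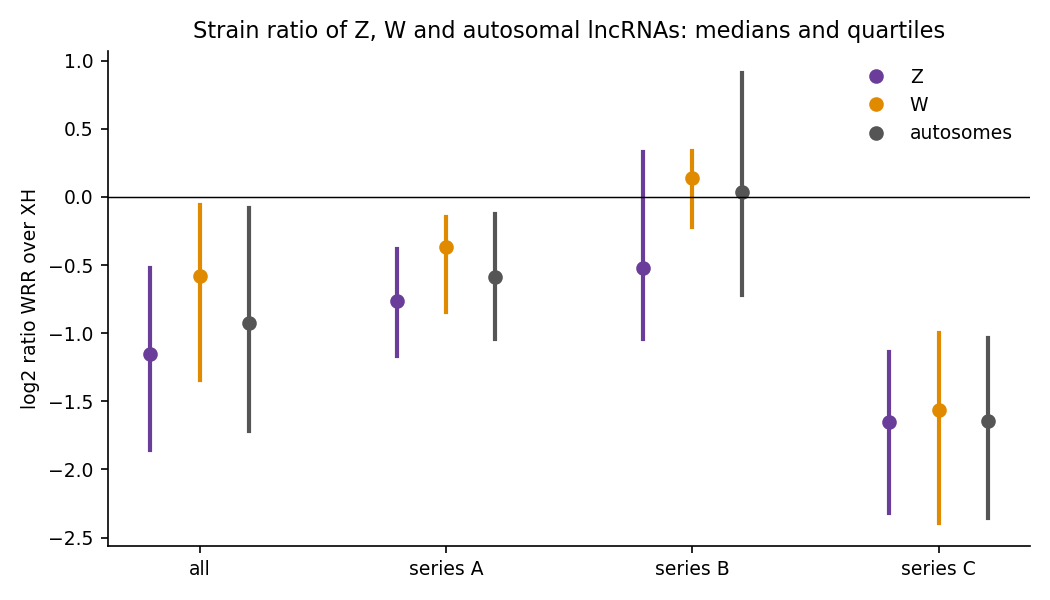
Median (points) and quartiles (bars) of the log2 ratio of WRR over XH for lncRNAs of Z, W and the numbered autosomes, over all transcripts past the filter and within the 3 series of serial numbers. In series B the Z median of -0.52 lies under the autosomal 0.04 and the W median of 0.14; in series C the Z and autosomal medians are both -1.65.

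**Figure D2:**
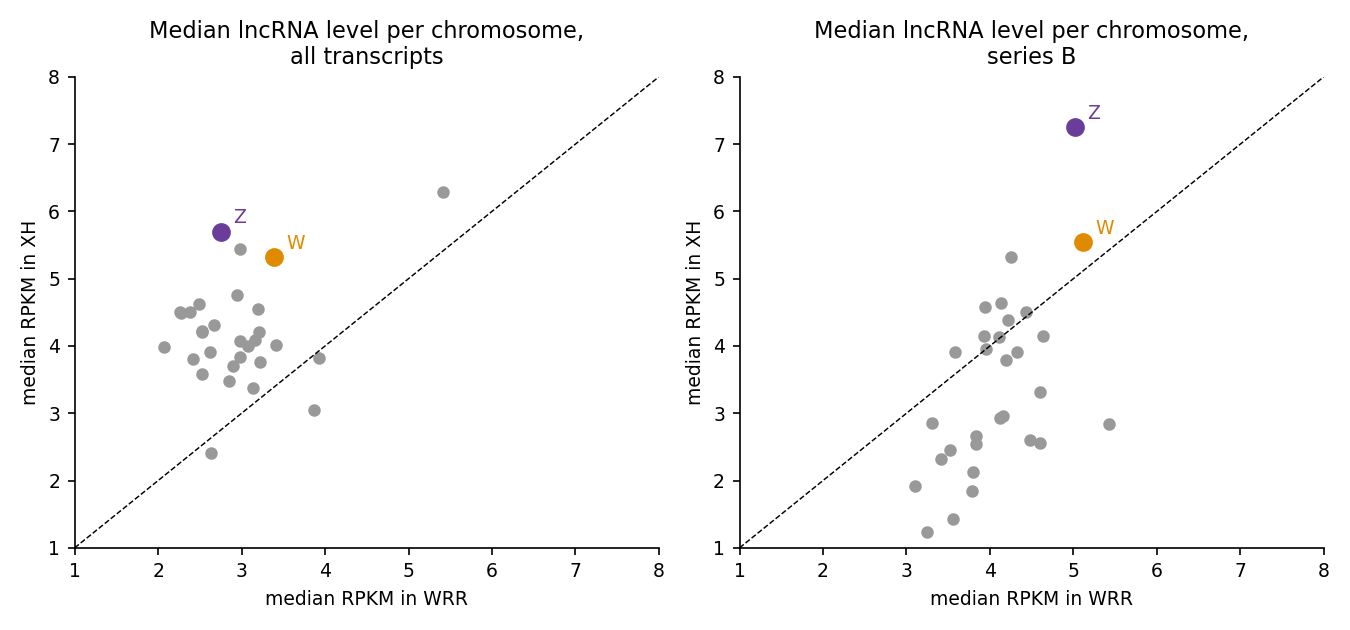
Median RPKM in WRR (horizontal) against XH (vertical) for each of 30 chromosomes, over all listed transcripts (left) and those of series B (right); the dashed line marks equal medians. Z (5.70 RPKM in XH) lies among the highest on the vertical axis at left and stands alone at the top, at 7.26 RPKM, at right.

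Within series B, Z and autosomes lay furthest apart at middle lengths. From 500 to below 2000 bases, 190 Z transcripts had a median log2 ratio of -0.49 and 5021 autosomal ones 0.08. From 2000 bases on, the medians were -0.85 for 19 on Z and -0.65 for 516 on autosomes. Below 500 bases they were 0.12 for 33 on Z and 0.21 for 1426 on autosomes. Transcripts whose interval is longer than themselves had a higher median on both, 0.29 for 18 on Z and 0.74 for 357 on autosomes in this series. Over all series, 15 Z lncRNAs had a mean of 50 RPKM or more; 0 of them had 2-fold or more in favour of WRR and 7 (46.7%) of XH, with log2 ratios from -2.43 to -0.27 and a median of -0.86. The 225 Z lncRNAs with a mean from 5 to below 10 RPKM had 2 (0.889%) and 110 (48.9%) and a median of -0.97. The 3573 autosomal ones in that range had 169 (4.73%) and 1481 (41.4%) and a median of -0.82. Of 243 autosomal transcripts at 50 RPKM or more, 31 (12.8%) had 2-fold or more in favour of WRR and 65 (26.7%) of XH.

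At least 50 RPKM was reached by 16 Z transcripts in XH and 5 in WRR, all 5 of them among the 16, and these 16 lay at 10 places when neighbours within 1 kb are joined. Of the 16, 11 were counted through XH alone, so their direction is largely set by this choice. The 5 at this level in both libraries also had the higher value in XH. Of all 21993 transcripts, 431 reached 50 RPKM in XH and 278 in WRR, beside 16 and 5 of the 848 on Z. At least 10 RPKM was reached in both libraries by 60 Z transcripts, in XH alone by 146 and in WRR alone by 10. In XH 24.3% of Z transcripts reached 10 RPKM, against 20.7% of all. In WRR 8.25% of Z transcripts did, against 11.2% of all. The 10 most read Z transcripts accounted for 30.04% of the Z reads in WRR and 26.5% in XH.

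The 8 most abundant Z lncRNAs, by mean RPKM, were all higher in XH. The first, 409 bases at Z, 21518514 to 21518922, had 142 RPKM in WRR (550 reads) and 217 RPKM in XH (685 reads). It was 1.52-fold higher in XH (exact 95% interval 1.36 to 1.71). The only other listed transcript within 30 kb, 2333 bases at 21516124 to 21518456, ends just before it and had 45.0 RPKM in the WRR pool and 76.7 RPKM in the XH pool, 1.70-fold higher in XH (1.57 to 1.85). The 2 ratios overlapped in their intervals.

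The second most abundant, 2939 bases at Z, 60261463 to 60264401, held 3614 reads (130 RPKM) in the WRR pool and 4234 reads (187 RPKM) in the XH pool, 1.43-fold higher in XH (1.37 to 1.50). A 255-base transcript at 945294 to 945548 had 64.4 RPKM in the WRR pool and 97.1 RPKM in the XH pool (1.51-fold, 1.21 to 1.88). The smallest difference among the 8 was at 72823258 to 72824299, with 69.3 RPKM in the WRR pool and 83.8 RPKM in the XH pool, 1.21-fold (1.09 to 1.35). That at 31230220 to 31233896, 3677 bases long, had 49.3 RPKM in the WRR pool and 88.8 RPKM in the XH pool, 1.80-fold (1.69 to 1.92). These differences are larger than the counting error, but 6 of the 8 lay above the median of all transcripts, so relative to it they were higher in WRR. Against the autosomal median of each one's own series, a scale chosen after seeing the data, most were lower in WRR. In order of mean RPKM, the log2 ratios of the 8 on that scale were -0.65, -0.56, 0.83, -0.006, -0.31, -1.06, 0.51 and -0.89.

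The remaining 3 of the 8 lie side by side near 53.6 Mb, in a run of 5 transcripts from 53584358 to 53592719 with gaps under 1 kb. The run spans 8.36 kb and held 470 reads per M in WRR and 886 in XH, more than any other run or single transcript on Z. The largest member, 4961 bases at 53587759 to 53592719, had 74.2 RPKM in the WRR pool and 131 RPKM in the XH pool, 1.76-fold higher in XH (1.68 to 1.84). At the other end, the transcript of 768 bases at 53584358 to 53585125 had 36.1 RPKM in the WRR pool and 113 RPKM in the XH pool, 3.13-fold (2.71 to 3.62). Between them, the one at 53585975 to 53586557 had 45.0 RPKM in the WRR pool and 99.2 RPKM in the XH pool, 2.20-fold (1.88 to 2.58). The intervals of the end members do not overlap, so the ratio was not even along the run. In XH the 5 levels lay between 83.0 and 131 RPKM, and in WRR between 36.1 and 74.2 RPKM. The table has no strand, and whether neighbours are pieces of 1 RNA was not tested.

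**Figure D3:**
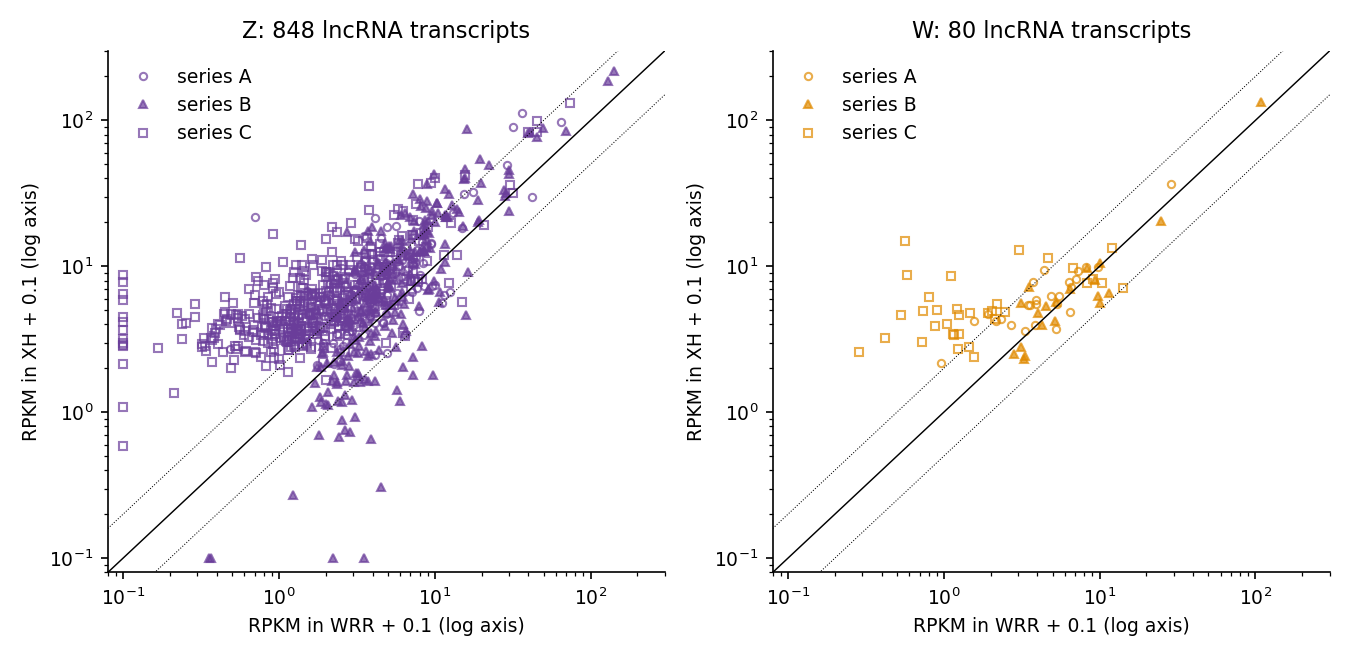
RPKM of each listed transcript in WRR (horizontal) and XH (vertical), with 0.1 RPKM added, on log axes, for Z (left, 848) and W (right, 80); the solid line marks equal values, the dotted lines 2-fold, and symbols the series. On Z 478 points past the filter lie on or above the upper dotted line (201 relative to the median of all transcripts) and the most abundant transcripts lie above the solid line; the points at the left and lower edges are transcripts with a dash in 1 library.

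Such neighbours were common, so members are not independent of each other. Joined across gaps of at most 1 kb, the 848 Z transcripts made up 496 places, of which 324 were single transcripts and 172 were runs. The runs held 524 transcripts (61.8%) and up to 15 each. Neighbours in a run resembled each other more in ratio than neighbours across a wider gap: among pairs of the same series, the log2 ratios differed by a median of 0.62 within runs (210 pairs) and 0.91 between them (222 pairs).

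The Z as a whole was filled unevenly. Of 83 bins of 1 Mb, 70 held a listed transcript and the median bin held 8. The bins from 44 to 45 Mb, 26 to 27 Mb and 18 to 19 Mb held the most, with 59, 40 and 38 transcripts, or 16.2% of the chromosome's. The 13 bins without a listed transcript were those from 3 to 6 Mb, from 14 to 15, 59 to 60, 61 to 62, 67 to 68 and 69 to 70 Mb, and from 73 to 78 Mb. Assembly gaps and known genes in these stretches were not analysed here.

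Reads were as uneven. The bin from 53 to 54 Mb, with the run of 5 transcripts, held 634 reads per M in WRR and 1128 in XH. Next came 60 to 61 Mb with 483 and 739, and 21 to 22 Mb with 272 and 449. These 3 bins held 25.4% of the listed Z reads in WRR and 22.4% in XH. The summed reads per M were higher in XH in 69 of the 70 filled bins and higher in WRR in 1.

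**Figure D4:**
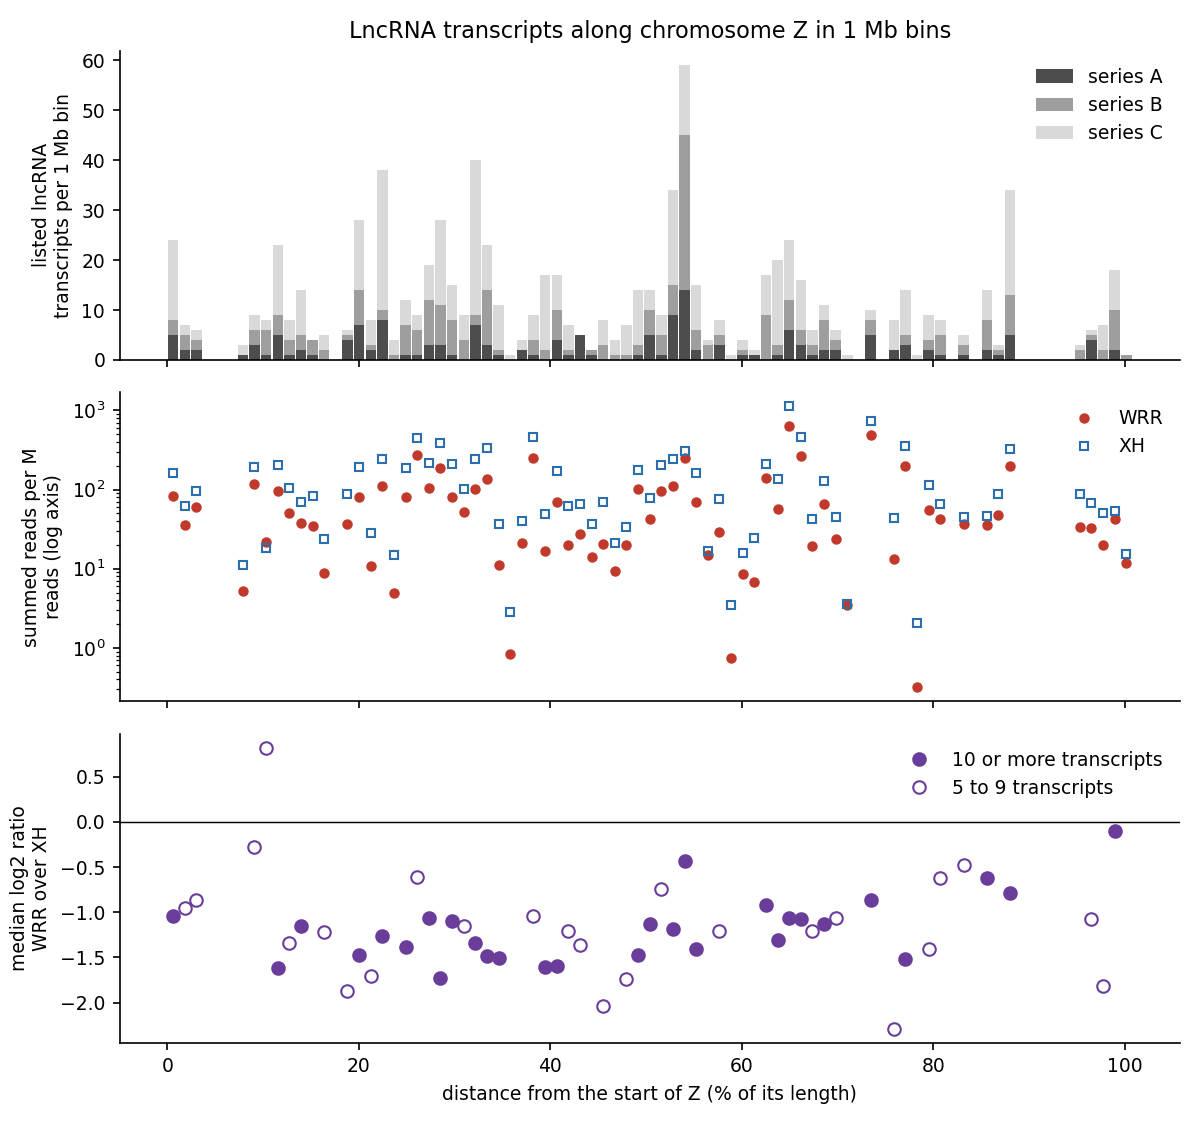
Chromosome Z in 1 Mb bins, placed by distance from its start in percent of its length: number of listed transcripts stacked by series (top), summed reads per M reads in WRR and XH on a log axis (middle), and median log2 ratio of WRR over XH in bins with 10 or more transcripts (filled) or 5 to 9 (open) (bottom). The tallest bar, 59 transcripts, is the bin from 44 to 45 Mb, and all 29 filled points lie below 0, from -1.73 to -0.10.

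In the 29 bins with at least 10 transcripts past the filter, the median log2 ratio ran from -1.73 to -0.10 and was below 0 in all 29. Relative to the median of all transcripts, 24 bins were lower in WRR and 5 higher. The bins with the highest medians were 81 to 82 Mb (-0.10, 18 transcripts), 44 to 45 Mb (-0.43, 59 transcripts) and 70 to 71 Mb (-0.62, 12 transcripts). Those with the lowest were 23 to 24 Mb (-1.73, 28 transcripts), 9 to 10 Mb (-1.62, 23 transcripts) and 32 to 33 Mb (-1.61, 17 transcripts). The share of series B among a bin's transcripts moved with its median ratio (Spearman's rho = 0.39, Pearson's r = 0.44, over 29 bins that share both libraries), and its part in the order of the bins was not tested. With each transcript set against the autosomal median of its own series, a measure chosen after the data had been seen, 32 to 33 Mb came to 0.04. On that scale the lowest bins were 33 to 34 Mb (-0.90), 27 to 28 Mb (-0.90) and 23 to 24 Mb (-0.81), and 81 to 82 Mb stayed highest (0.55).

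Levels also varied between these 29 bins. The median RPKM of a bin ran from 1.07 to 6.71 in WRR and from 2.55 to 18.5 in XH, and it was higher in XH in 28 of them. The median coverage ran from 52.4% to 91.4% in WRR and from 70.6% to 99.5% in XH.

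The bin from 27 to 28 Mb held 23 transcripts, 11 of them of series B. The 11 had a median of 7.13 RPKM in the WRR pool and 19.9 RPKM in the XH pool and a median log2 ratio of -0.98. Among them, 3 neighbours lie between 27473454 and 27477203. The first, 537 bases, had 8.87 RPKM in the WRR pool and 28.0 RPKM in the XH pool, the next, 1303 bases, 10.2 and 26.9 RPKM, and the last, 1618 bases, 7.13 and 31.1 RPKM. These 3 were picked out after their values had been seen. In this bin, named for its low ratio, 15 of 23 transcripts passed 2-fold towards XH and 0 towards WRR. Over all transcripts 46.9% and 9.45% did, and on Z 56.6% and 3.43%.

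The run with the most transcripts on Z showed no such excess of XH in its summed reads. Between 44407506 and 44478820, over 71.3 kb, 34 transcripts followed each other with gaps of at most 10 kb, 22 of them of series B and 6 each of A and C. Together they held 173 reads per M in WRR and 167 in XH, which is a ratio of 1.04 (0.963 to 1.12), against 0.531 for all of Z. Their median level was 3.99 RPKM in the WRR pool and 4.53 RPKM in the XH pool, and 14 of the 34 were higher in WRR. Over the whole table past the filter, 76.1% of all transcripts and 48.4% of series B were lower in WRR. In the run, the median log2 ratio was -0.04 for the members of series B, -0.02 for A and -1.04 for C. On autosomes these medians were 0.04, -0.59 and -1.65. The next largest such run, 32 transcripts from 18257669 to 18315631, had 68.5 reads per M in WRR and 174 in XH, which is a ratio of 0.393 (0.357 to 0.432), and 27 of its members were of series C. The 2 stretches thus differed beyond counting error, and they also differed in series.

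Leaving out the bin from 44 to 45 Mb moved the series B values of Z a little. The 31 transcripts of series B in it had a median log2 ratio of 0.32. Without them the remaining 211 had -0.59, in place of -0.52 for all 242. Bins with at least 8 transcripts of series B numbered 7, and their medians ran from -1.07 at 22 to 23 Mb to 0.66 at 81 to 82 Mb.

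**Figure D5:**
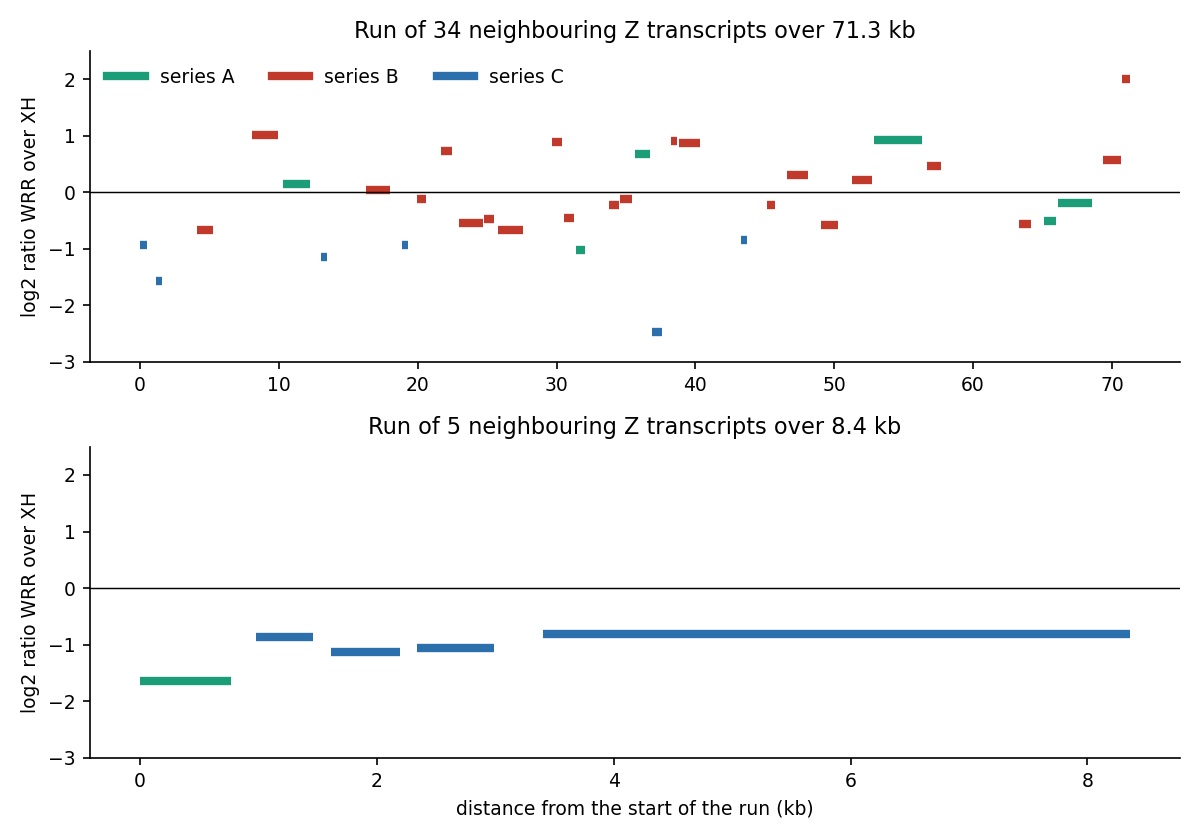
Log2 ratio of WRR over XH of each transcript (vertical) against its place in kb from the start of its run (horizontal) for the run with the most transcripts on Z (34, top) and the run with the most reads (5, bottom); each bar is a transcript drawn to scale and coloured by series. In the upper run 14 of the 34 bars lie above 0, where 76.1% of all transcripts past the filter lie below it. In the lower run all 5 lie between -1.64 and -0.81.

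The Z lncRNAs higher in WRR had few reads. Of the 29 at least 2-fold higher there, 28 were of series B, as were 1775 of 2043 in the whole table. The most read of the 29 had 95 reads. Their median was 21 reads in WRR, against 33 reads in XH for the 478 higher in XH. In WRR, 2 of the 29 reached 10 RPKM, near the 8.25% of all Z transcripts that did. Counting error left 1 outside the ratio's exact interval for 21 of the 29 (72.4%) and for 469 of the 478 higher in XH (98.1%), against 80.9% and 95.7% of all transcripts past 2-fold. Among transcripts read in both libraries with at least 20 reads in all, the highest ratio was that of a 622-base transcript whose interval spans Z, 11589497 to 11603568, with 26 reads (4.43 RPKM) in the WRR pool and 1 read (0.208 RPKM) in the XH pool. Its ratio was 21.2, with an interval of 3.49 to 871. It overlaps a run of transcripts of series C that were mostly higher in XH, so both directions were listed at this place.

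The next 2 were at Z, 32448460 to 32448688, with 9.71 RPKM in the WRR pool and 1.70 RPKM in the XH pool (5.72-fold, 1.71 to 29.9), and 44393104 to 44393460, with 5.93 and 1.09 RPKM (5.45-fold, 1.62 to 28.6). Those at 49795668 to 49796062, 44478212 to 44478820 and 24785146 to 24785929 were 4.29-fold, 4.19-fold and 3.88-fold higher in WRR, with 4 to 8 reads in XH. Of the 6, 2 thus lie in the bin from 44 to 45 Mb, which held 4 of the 29 among its 59 transcripts. All 4 were of series B, 12.9% of the bin's 31, below the 23.6% of that series over the whole table. The bin from 8 to 9 Mb, with 8 transcripts, also held 4, the most read of them, picked out after its values had been seen, at 8858844 to 8859304 with 14.9 RPKM in the WRR pool and 5.62 RPKM in the XH pool (2.66-fold, 1.59 to 4.63). Its median log2 ratio, 0.82, was the only one above 0 among bins with at least 5 transcripts past the filter.

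In the other direction 1 Z lncRNA combined a large ratio with many reads. The 883-base transcript at Z, 43611653 to 43616437, was read 5 times (0.600 RPKM, 28.2% of the length covered) in WRR and 147 times (21.6 RPKM, 92.8% covered) in XH. It was 36.0-fold higher in XH (15.1 to 112). The other 5 of the lowest 6 ratios, at 80908573 to 80909431, 18266909 to 18267137, 9421353 to 9421903, 18302004 to 18302262 and 9888478 to 9889236, had 1 or 2 reads in WRR and 20 to 33 in XH. XH exceeded WRR by 20.2-fold to 37.9-fold, with lower bounds of 3.92 to 6.32, and all were of series C. A 397-base transcript at 78717719 to 78718115, singled out after its values had been seen as the most one-sided of those with at least 50 RPKM in XH, had 16.0 RPKM in the WRR pool and 86.5 RPKM in the XH pool, a log2 ratio of -2.43.

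A dash, taken as 0 reads, stood in WRR for 14 Z transcripts (1.65%, against 2.47% of all), all of series C. In XH it stood for 4 (0.472%, against 1.35% of all), all of series B. Over the whole table, 504 of 544 dashes in WRR were of series C and 254 of 296 in XH were of series B. The 5 dashes in WRR with the most XH reads, 20 to 25, lay at 43322357 to 43322917, 26941296 to 26942024, 32049989 to 32051376, 37253860 to 37254849 and 16485325 to 16485729. Further dashes, at 20 reads or fewer, are not named. With 3 reads per library as the floor, the 5 were at least 8.16-fold to at least 10.2-fold higher in XH. The exact lower limits of their read ratios, a wider allowance for counting error, were 6.04 to 7.70. Of the 4 dashes in XH, the transcript at 81435056 to 81436154 had 21 reads (3.41 RPKM) in WRR and was at least 5.72-fold higher there, and that at 44048141 to 44048984 had 17 reads and was at least 4.63-fold higher. Their exact lower limits were 4.25 and 3.37. The other 2 start at the same base, 70191890, had 4 reads each in WRR, and overlap a transcript of series C, 70192699 to 70196786, with a dash in WRR and 6 reads in XH. No Z transcript with a dash had more than 25 reads in the other library.

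The longest Z lncRNA, 12225 bases at 63511647 to 63523871, had reads over 94.4% of its bases in the WRR pool and 99.3% in the XH pool. Its 1502 reads in WRR (13.0 RPKM) and 2189 in XH (23.2 RPKM) made it 1.78-fold higher in XH (1.67 to 1.91). The next longest, 8035 bases at 72465792 to 72473826, had 3.65 RPKM in the WRR pool and 6.40 RPKM in the XH pool, 1.75-fold (1.50 to 2.05). Both ratios lay close to that of all Z reads.

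With reads scaled to the library totals, the W lncRNAs differed less between the strains than those of Z. Their median level was 3.39 RPKM in WRR (quartiles 1.37 and 6.42) and 5.32 RPKM in XH (3.92 and 7.71), which was 1.32 and 1.22 times the autosomal medians. Summed over W, the ratio of reads was 0.754 (0.727 to 0.783), between the 0.531 of Z and the 0.799 of autosomes. On chromosomes 3, 4 and 5 the ratio was 0.584 (0.581 to 0.586), below that of W. The place of W against autosomes in summed reads thus depends on which autosomes are taken. None of the 80 transcripts had a dash, where 2.47% of all did in WRR and 1.35% in XH, so 0 of 80 lay near the share of the whole table. On W 31 (38.8%) passed 2-fold towards XH and 1 (1.25%) towards WRR, against 46.9% and 9.45% of all transcripts. The median log2 ratio was -0.58, but lay above 0, at 0.34, relative to the median of all transcripts, so its direction depends on the scaling. On that scale Z lay at -0.24, so W was not the nearer to 0 there. Within series A, B and C it was -0.37, 0.14 and -1.57, against -0.59, 0.04 and -1.65 on autosomes and -0.76, -0.52 and -1.65 on Z.

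A few transcripts held much of the W reads. A 917-base transcript at 418 to 1334 of a scaffold of 1461 bases held 945 reads (109 RPKM) in the WRR pool and 941 reads (133 RPKM) in the XH pool, 17.2% and 15.8% of the W reads, and was 1.22-fold higher in XH (1.11 to 1.34). Next came a 2165-base transcript, listed over 120 to 1344 of a scaffold of 1344 bases and thus longer than its interval, with 28.8 RPKM in the WRR pool and 36.4 RPKM in the XH pool, 1.27-fold (1.13 to 1.42). Reads covered 93.2% of this 2165-base transcript in WRR and 94.3% in XH, while its interval holds 1225 bases. Part of what was read thus has no place on this scaffold. Its share of the W reads, 10.7% in WRR and 10.2% in XH, includes that part. Both of these most abundant W transcripts take up most of a short scaffold. The next, 739 bases at 4347 to 5085 of a 53.2 kb scaffold, had 24.6 RPKM in the WRR pool and 20.3 RPKM in the XH pool, a ratio of 1.21 whose interval (0.952 to 1.55) includes 1. A 1076-base transcript at 22955 to 24030 of a 184.7 kb scaffold reached 11.9 RPKM in WRR, with 45.1% covered, and 13.3 RPKM in XH, with 94.2% covered, a ratio of 0.899 (0.688 to 1.17). All of these, and the fifth, which is given next, lay above the median of all transcripts in ratio.

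Opposite extremes of W lay side by side. On a scaffold of 73.1 kb, the 466-base transcript at 44199 to 44664 had 62 reads (14.1 RPKM) in the WRR pool and 25 reads (6.95 RPKM) in the XH pool, 2.03-fold higher in WRR (1.25 to 3.36). The 228-base transcript at 44814 to 45041 had 1 read (0.464 RPKM) in the WRR pool and 26 reads (14.8 RPKM) in the XH pool, 31.8-fold higher in XH (5.23 to 1305). These were the highest and the lowest ratio of W, and both were of series C. On the assembled W, the transcripts at 920132 to 920580 and 843453 to 844076 were 1.81-fold and 1.77-fold higher in WRR (1.03 to 3.29 and 1.14 to 2.80). Those at 1072588 to 1073025 and 1101930 to 1103065, each with 2 reads in WRR, were 17.7-fold and 13.5-fold higher in XH (4.49 to 154 and 3.31 to 118).

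The sequences of W differed from each other in ratio, and in series. The 53.2 kb scaffold held 11 transcripts and 22.1% of the W reads in WRR and 20.8% in XH, with a ratio of summed reads of 0.804 (0.742 to 0.871). The 127.6 kb scaffold, with 10 transcripts, 9 of them of series B, had a ratio of 0.951 (0.830 to 1.09), and 0 of its 10 were at least 2-fold apart. The 184.7 kb scaffold, with 19 transcripts, 13 of series C, 6 of A and none of B, had 0.553 (0.497 to 0.614). Of its 19, 12 were at least 2-fold higher in XH. The 51.5 kb scaffold, with 6 transcripts, 5 of series C and 1 of A, had the highest ratio of the W sequences, 1.05 (0.895 to 1.24). Of its 6, 2 were at least 2-fold higher in XH. A large share of series C thus did not always go with a low ratio. The assembled W, with 18 transcripts, had a ratio of 0.797 (0.723 to 0.879). Over the whole table, 76.1% of series C, 26.6% of A and 15.9% of B were at least 2-fold higher in XH. For WRR the shares were 0.764%, 5.15% and 23.6%. What the series gave to the differences between W sequences was not tested. Counting error left 1 outside the interval for 43 W transcripts (53.8%) higher in XH and 4 (5%) higher in WRR, close to the 54.8% and below the 9.95% of all transcripts.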

How the data were processed

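Per the labels' protocols, ribosomal RNA was removed from each pool's RNA and 1 dUTP library per strain was sequenced. Per the submitters' processing notes, the build was galGal4 and the tools included TopHat2 2.0.8 and Cufflinks 2.0.2; what each did, and the rule that made a transcript non-coding, are not given in the sources here. The deposited counts are unique reads, per the file headers. The deposited RPKM follow from those counts, the length and the header's total (9442942 for WRR, 7714657 for XH). The deposited percent of length covered was used as given. Starts were read as counted from 0 and printed from 1.

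Computed here, with Python 3.11.15, numpy 2.4.6, pandas 2.3.3 and scipy 1.17.1: log2((WRR + 0.1) / (XH + 0.1)) over the whole table, counts at 2-fold, ratios of reads per total with exact 95% (Clopper-Pearson) intervals, and bins of 1 Mb by interval midpoint. Calls were checked on simulated data with counting error only and planted changes well above 2-fold. Recovery of changes near 2-fold was not checked. PCR copies were not told apart from molecules, so intervals cover counting error only. No test was run, as each strain has 1 pooled library. Scaffolds assigned to a chromosome were counted with it, except in densities.

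Named on Z were the 8 highest means, the 6 highest and 6 lowest ratios with at least 20 reads, up to 5 dashes per direction, the 2 longest and those within 30 kb of the most abundant. On W, the 5 highest means and 3 highest and 3 lowest ratios were named. Of the Z bins, the 3 first in each measure were named. Members and rules were chosen with earlier results of these data known. No galGal4 genome was used, so no sequence is shown and no neighbouring gene is named. Without strand, overlapping antisense transcripts cannot be told apart. Related copies on Z and W can lose reads to the demand for unique mapping.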

Additional observations from a re-analysis of the deposited data

How the results depend on the processing

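No paired analysis was possible because there is a single pool of either strain, and no library could be left out. Unless named here, counts and medians over Z and W kept their direction and stayed within 1.5 times under the settings tried. These were the filters, minimum of 20 reads, minimum coverage of 80%, pseudocount and scalings. Bin results kept theirs with bins of 2 Mb and bins shifted by 0.5 Mb. The filters, pseudocount and library scalings were not run on bins, and 24 of 29 bins lay below the median of all transcripts. On Z, 478 higher in XH and 29 in WRR (median -1.15) became 201 and 103 (-0.24) centred on all transcripts, 258 and 74 (-0.49) scaled to listed autosomal reads without the 10 most read, and 176 and 82 (-0.17) centred within series, a setting chosen after seeing the data. Scaled to listed reads, 51 were higher in WRR (-0.84), and with a pseudocount of 1 RPKM, 17 (-0.95). On W, 31 and 1 (-0.58) became 14 and 17 (0.34), 16 and 9 (0.078) and 9 and 8 (0.11) in the first 3 settings, so the median turned. The number higher in WRR was 3 scaled to listed reads and 0 with a pseudocount of 1 RPKM. The assembled W alone had 6 and 0.

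The Z level over autosomes in WRR, 1.07, fell to 0.980 at 80% coverage and was 1.25 in series B. In XH it was 1.31, and 1.18 at that coverage, 1.22 in series A, 1.90 in B and 1.18 in C. The W level in WRR, 1.32, was 0.888 in series C. In XH it was 1.22, and 1.53 without scaffolds, 1.05 at 80% coverage, 1.02 in series A and 1.45 in B. With bins of at least 5 transcripts, 54 bins were compared, 53 lay below 0 and the highest median was 0.82. Centred within series, 19 of 29 bins lay below 0, from -0.90 to 0.55. Of 42 named transcripts, 12 turned from higher in XH to higher in WRR centred on all transcripts, 7 by autosomal reads, 3 by listed reads, 0 with the other pseudocount and 4 centred within series. These 4 were the Z neighbours at 53585975 to 53586557 (-1.14 to 0.51) and 53587759 to 53592719 (-0.81 to 0.83) and W transcripts of 2165 bases (-0.34 to 0.25) and 1076 bases (-0.15 to 1.49). The cause was not tested, beyond what each setting's construction shows. Depth limits transcripts with few reads: with 1 read in a library, the exact interval of a ratio ran from 3.49 to 871, and with 5 from 15.1 to 112.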

Other observations

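Coverage differed between the libraries at some lncRNAs that were well read in both. Of 413 Z transcripts with at least 20 reads in each library, coverage of the length differed by 30 percentage points or more for 31 (7.51%), and it was the lower in WRR for 26 of these and in XH for 5. On W this held for 5 of 49 (10.2%), all lower in WRR. Over all transcripts the share was 6.27%, or 600 of 9563, with 435 lower in WRR and 165 in XH, so Z lay near the share of the whole table. In the 813-base Z transcript at 16930157 to 16930969, 22 reads covered 46.4% of the length in WRR and 22 reads covered 85.0% in XH. The 725-base transcript at 26528037 to 26528761 had 33 reads over 88.1% in WRR and 35 reads over 50.1% in XH. A 1076-base W transcript with 121 reads in WRR and 110 in XH was covered over 45.1% and 94.2%. At these places, picked out after their values had been seen, similar numbers of reads thus covered unequal shares of the same transcript.

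The longest interval on W belongs to a 2474-base transcript listed from 205051 to 913421 of the assembled W, the one W transcript whose interval is longer than itself. In WRR 167 reads (7.15 RPKM) covered 69.4% of it, and in XH 176 reads (9.22 RPKM) covered 71.8%, a log2 ratio of -0.36.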
